A study of Mus musculus with 9 samples.

Results

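Aggregates of mouse mammary epithelial cells that held basal and luminal cells in a 50% mixture (mixed aggregates) were compared with aggregates of basal cells alone (basal aggregates), over every gene of the deposited count table. The comparison uses 6 of the 9 libraries of the series, 3 mixed and 3 basal, chosen by their titles. The other 3 libraries, of luminal cells alone, enter the fit for its estimate of spread and are otherwise given only as levels. All cells were wild-type, were sorted by flow cytometry and were embedded in 80% Matrigel, a basement membrane gel, with basal medium. Every aggregate, in both groups, faced a heparin sulfate bead of 100 to 150 µm soaked in FGF10 (10 µL at 100 µg/mL) and placed about 100 µm away. Migration lasted 56 h by the treatment label and 55 h by the titles. No aggregate without FGF10 is among the samples, so a response to the factor itself cannot be read from these values. The labels used here do not tie libraries to separate animals or cultures, so p-values measure only the spread between these libraries, which may be technical.

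The mammary duct is a tube with 2 epithelial layers. Luminal cells line the lumen, respond to oestrogen, progesterone and prolactin, and make milk. Basal or myoepithelial cells surround them, contract under oxytocin, lay down the basement membrane and express keratins 5 and 14. FGF10 comes from the stroma of the developing gland and signals through Fgfr2 on epithelial cells, where the ETS factors Etv4 and Etv5 are known targets of the pathway.

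The 6 libraries held 15585324 to 19164405 counts, and 3 counts, taken as the limit of detection, corresponded to 0.152 to 0.187 CPM across the series. CPM are counts relative to a library size corrected by TMM, the trimmed mean of M-values. This limit covers counting error only, and the labels name no molecular identifiers. Basal 2 stood apart from the other basal libraries. Its code in the header of the count table has the prefix of the 3 mixed libraries (called series A here), whereas basal 1 and 3 share another prefix (series B). Across genes its log2 CPM correlated with basal 1 and 3 at r = 0.927 and 0.936, against 0.986 between basal 1 and 3, and 5003 and 4090 genes lay at least 2-fold from it, against 936 between basal 1 and 3. Its correlation with mixed 1 to 3 was 0.926, 0.915 and 0.903, and 4437, 4760 and 5588 genes lay at least 2-fold from it there. The median absolute log2 difference of basal 2 was 0.445 from mixed 1, which is smaller than from basal 1 (0.586) or basal 3 (0.508). These correlations are across genes, which are not independent replicates. What the prefix stands for is not given in the sources used here, so kind of aggregate and series can be told apart only through basal 2. Its value is therefore given apart for each gene whose libraries are listed one by one. No luminal library is in series A. Mixed and luminal levels, compared for some genes only and without a test, therefore also differ in series.

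Of the 2 basal keratins, Krt5 set the luminal libraries apart more clearly than Krt14 did. The level of Krt5 was 1787 and 2109 CPM in basal 1 and 3, 1630.3 in basal 2 and 1157, 1084 and 1129 in the mixed libraries. Krt14 was at 4201 and 4884 CPM in basal 1 and 3, at 4472 in basal 2 and at 3658, 3478 and 2834 in the mixed libraries. Krt5 stood at 23.2, 12.996 and 16.8 CPM in the luminal libraries and Acta2, smooth muscle actin, at 69.3, 50.1 and 14.6 CPM. Both were lower there than in any basal or mixed library by more than 10-fold, while Krt14 stood at 2502, 2554 and 1285 CPM. In bulk RNA, fewer cells of a kind and less RNA per cell cannot be told apart. If each kind gave equal RNA, a transcript made by basal cells alone would stand in mixed aggregates at 50% of its basal level, a log2 difference of -1, and the share of RNA from each kind was not measured.

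Of 18051 genes tested, 1153 were higher and 1324 lower in mixed aggregates (edgeR's quasi-likelihood test, Benjamini-Hochberg adjusted p below 0.05), which is 6.39% and 7.33% of the genes. In what follows, log2 is the log2 difference of mixed minus basal aggregates, with its standard error (SE) and this adjusted p. A fold of at least 2 was also reached by 778 of the higher (4.31% of tested genes) and 901 of the lower (4.99%). When the test was set against a 2-fold difference, 258 genes were higher (1.43%) and 120 lower (0.665%). Of the called genes, 976 of the higher had a mixed mean of at least 10 CPM and 1040 of the lower a basal mean of at least 10 CPM. A further property of the calls was that 101 of the lower genes had 0 counts in all 3 mixed libraries and 6 of the higher genes 0 counts in all 3 basal libraries. Gene names with any count numbered 25031 and 24340 in basal 1 and 3, and 21633 in basal 2. Mixed 1 to 3 held 21322, 20494 and 18461. The part of this difference in the genes at 0 counts was not tested. The balance of the calls depended on the scaling. With library size alone in place of TMM, 951 genes were higher and 1882 lower, so that 33.6% of calls were higher in place of 46.5%, and the median difference over all genes moved from -0.07 to -0.22.

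**Figure D1:**
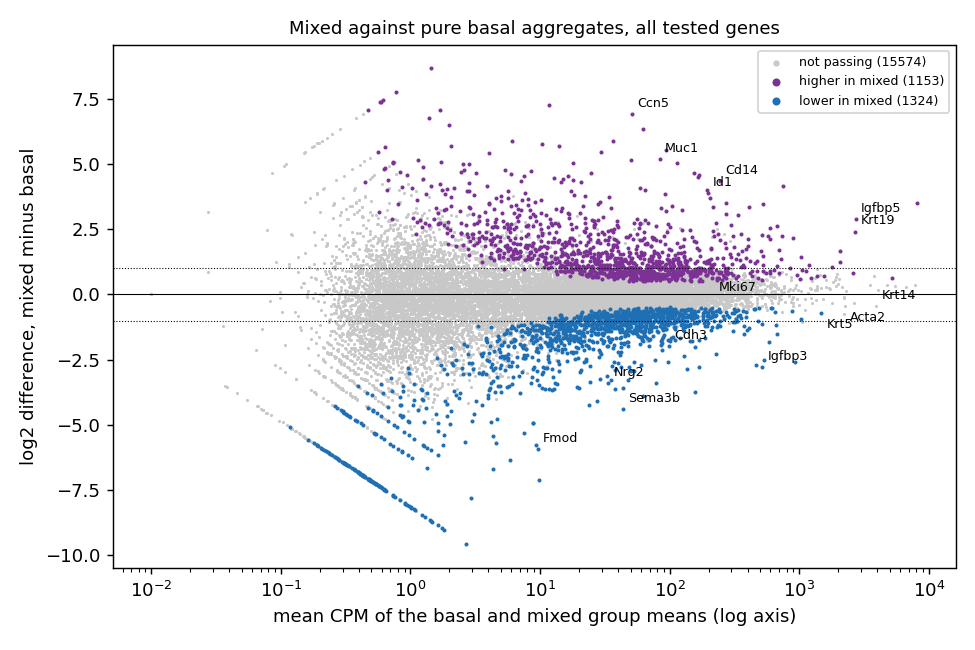
Each point is a gene, with the mean of the basal and mixed group means in CPM on a log axis and the log2 difference of mixed minus basal on the vertical axis. Purple points (1153) passed as higher and blue points (1324) as lower in mixed aggregates, grey points did not pass, and dotted lines mark 2-fold. The straight lines of blue points at the lower left are genes with few or no counts in the mixed libraries.

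The counts depended on which basal libraries served as the reference. With basal 2 as a group of its own, 2711 genes were higher and 2338 lower in mixed aggregates than in basal 1 and 3, which together is 28.0% of the genes. Against basal 2 alone, within series A, 589 were higher (3.26%) and 386 lower (2.14%), a test that rests on 1 basal library and borrows its spread from the other groups. With the series as a term of the fit, 529 were higher (2.93%) and 324 lower (1.79%). Basal 2 nevertheless lay on the basal side of all 3 mixed libraries for 1150 of the 1153 genes called higher and 1253 of the 1324 called lower. The call itself used basal 2, so those shares are a description. Without basal 2 the counts were 2627 and 2493 (27.0% of the genes then tested), without basal 1 they were 706 and 470, and without basal 3 they were 558 and 405. Fits without mixed 2 or mixed 3 called 865 and 838 genes lower, of which 707 and 722 were among the 1324. Of the 235 genes that the rule for named genes chose, 220 passed, and 142 of these also passed with each of the 9 libraries left out in turn. Against basal 2 alone all 220 had the same direction. Their calls used basal 2 and the same mixed libraries, so this too is a description. Among the called genes named below, Axl, Bmp2, Bub1b, Car12, Cdc42ep5, Col4a2, Epha4, Kif20a, Lalba, mt-Atp6, Sdc3, Sdc4, Sulf2, Tmem59l, Wap and Wnt5a did not pass against basal 2 (adjusted p from 0.062 for Kif20a to 0.21 for Sulf2), and others are marked where they are described. Of 55 gene lists with a median, 10 had one of the opposite sign against basal 2.

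The genes with the largest rises were low in all basal libraries, basal 2 included. For Ccn5 the values were 0.812 and 1.21 CPM in basal 1 and 3, 0.496 in basal 2 and 90.2, 97.0 and 116 in mixed aggregates (chromosome 2, 163662781 to 163675066, mm39). Ccn5 is a matricellular protein of the CCN family, and its difference was log2 6.91, SE 0.32, adjusted p = 5.8e-07. Luminal libraries stood higher still, at 567, 568 and 384 CPM. Muc1 stood at 4.67 and 5.002 CPM in basal 1 and 3, 3.69 in basal 2 and 169, 156 and 165 in mixed 1 to 3 (chromosome 3, 89136364 to 89140688). Muc1 is the transmembrane mucin of the apical luminal surface, and its difference was log2 5.20, SE 0.20, adjusted p = 3.1e-07. The level of Smoc1 was 4.77 and 2.87 CPM in basal 1 and 3, 4.19 in basal 2 and 131, 189.6 and 232 in the mixed libraries. Smoc1, a secreted calcium-binding matrix protein, differed by log2 5.54, SE 0.61, adjusted p = 0.00023. The mixed libraries of these 3 genes lay far above every basal library. The rule that chose them required this lack of overlap. Among the other top risers were Slc28a3, a nucleoside transporter (log2 5.17, SE 0.51, adjusted p = 0.0001), and A4galt, the enzyme that makes the Gb3 glycolipid (log2 5.87, SE 0.73, adjusted p = 0.00045). Pkib, an inhibitor of protein kinase A, had 0 counts in basal 1 and 3 and 8 counts in basal 2, and stood at 12.7, 19.0 and 38.3 CPM in the mixed libraries. Tgm5, a transglutaminase, was called in every fit that left out 1 library, while basal 2 held 1 count of it and basal 1 and 3 stood at 2.23 and 0.862 CPM.

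The genes with the largest falls had been expressed in all 3 basal libraries and stood far lower in every mixed library, from 0 counts up to 9.84 CPM among the genes described here. Sema3b was at 97.7 and 67.4 CPM in basal 1 and 3, at 85.6 in basal 2 and at 5.09, 5.91 and 0.926 in the mixed libraries (chromosome 9, 107474873 to 107486428). Sema3b, a secreted semaphorin that repels migrating cells and axons, differed by log2 -4.40, SE 0.52, adjusted p = 0.00035. For Loxl3 the values were 142 and 138 CPM in basal 1 and 3, 68.4 in basal 2 and 6.92, 9.84 and 6.64 in mixed aggregates. Loxl3, a lysyl oxidase that crosslinks collagen and elastin, differed by log2 -3.90, SE 0.56, adjusted p = 0.0012, and its mixed mean was 6.72% of the basal mean. Fmod stood at 23.1 and 19.5 CPM in basal 1 and 3, 13.998 in basal 2 and 0.858, 0 and 0.0545 in mixed 1 to 3 (chromosome 1, 133964992 to 133976015). Fmod is fibromodulin, a collagen-binding proteoglycan, with a difference of log2 -5.92, SE 1.04, adjusted p = 0.004. All 3 stood below every basal library in each mixed library, which the rule that chose them required. The level of Apobec1 was 51.5 and 50.7 CPM in basal 1 and 3, 33.9 in basal 2 and 1.09, 1.66 and 4.47 in the mixed libraries. Apobec1, the editing enzyme of apolipoprotein B mRNA, differed by log2 -4.23, SE 0.63, adjusted p = 0.0015. Reln was at 57.2 and 45.9 CPM in basal 1 and 3, at 53.0 in basal 2 and at 2.63, 6.58 and 0 in the mixed libraries. The difference of Reln, a secreted glycoprotein of the Reelin pathway, was log2 -4.09, SE 0.90, adjusted p = 0.013, with an adjusted p of 0.051 when mixed 1 was left out. Psd2, Aox3, Sez6l, Fam171b, Gm33651, 2010007H06Rik and Tmem59l completed the group of 12, and the fall of Tmem59l did not pass without basal 1, basal 3 or mixed 1.

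**Figure D2:**
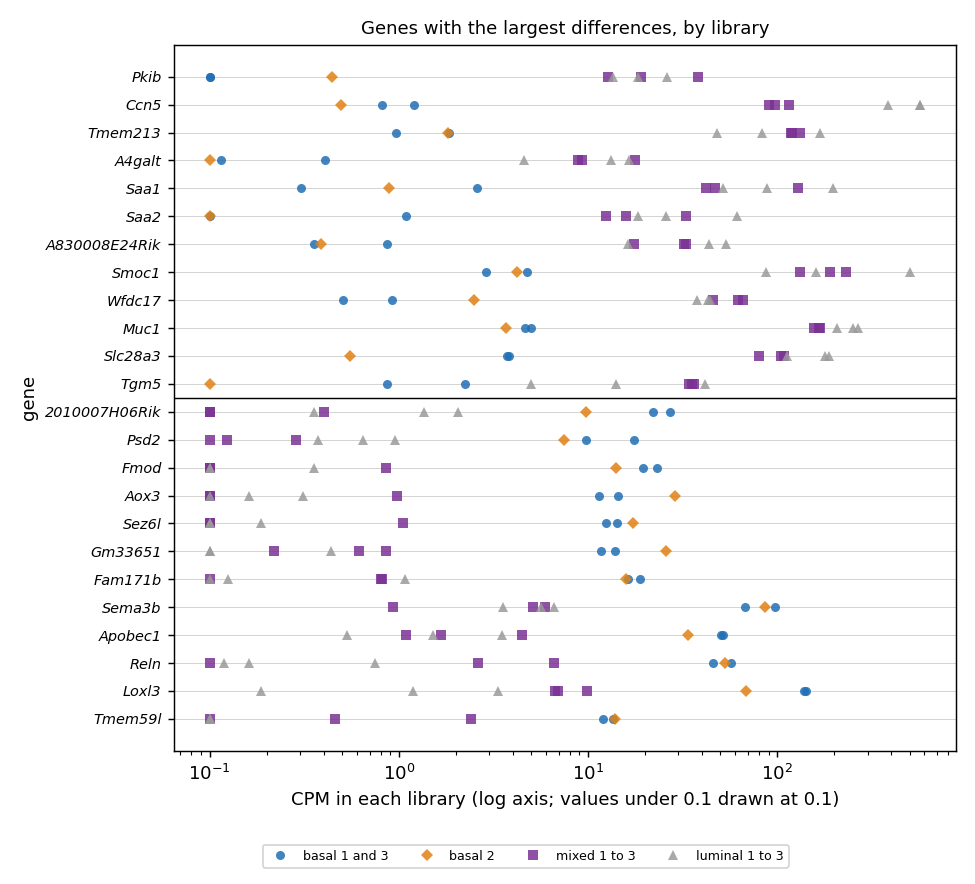
Each row is a gene and each symbol a library, with CPM on a log axis. The 12 genes above the line rose most and the 12 below it fell most, blue circles are basal 1 and 3, orange diamonds basal 2, purple squares mixed and grey triangles luminal libraries. For Sema3b the mixed libraries sit between 0.926 and 5.91 CPM, below all 3 basal libraries at 67.4 to 97.7 CPM.

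Basal identity genes fell in part. Of 18 basal identity genes tested, 1 was higher and 7 lower, with a median log2 difference of -0.42. For Cdh3 the values were 177 and 166 CPM in basal 1 and 3, 132 in basal 2 and 45.9, 42.0 and 32.7 in mixed aggregates. Cdh3, P-cadherin, fell to 25.4% of the basal mean (log2 -1.98, SE 0.22, adjusted p = 0.00027). Pdpn stood at 118 and 123 CPM in basal 1 and 3, 184 in basal 2 and 37.4, 27.5 and 32.0 in mixed 1 to 3. Pdpn, podoplanin, a mucin-like membrane protein of basal cells, fell to 22.8% (log2 -2.13, SE 0.26, adjusted p = 0.00045). Both falls also passed against basal 2 alone. Krt15, a basal keratin, stood at 29.9% of the basal mean (log2 -1.74, SE 0.33, adjusted p = 0.0062), and its difference against basal 2, -1.37, did not pass (adjusted p = 0.084). Against these, mixed aggregates held 61.0% of the basal mean of Krt5 (log2 -0.71, SE 0.21, adjusted p = 0.044) and 59.8% of that of Trp63, the master transcription factor of basal cells (log2 -0.74, SE 0.21, adjusted p = 0.035). Both calls ended against basal 2 and in 6 of the 9 fits that left out 1 library, those of basal 1 and 3 and the 3 mixed libraries among them, where the adjusted p reached 0.17 for each. Krt14, at 73.5% of the basal mean, did not pass (log2 -0.44, SE 0.25, adjusted p = 0.26). The 1 riser was Lgr6, a receptor for R-spondins, at 60.8 to 69.0 CPM in basal libraries and 234 to 285 in mixed ones (log2 1.99, SE 0.21, adjusted p = 0.00015). In the luminal libraries Lgr6 stood at 325, 310 and 196 CPM, above every basal library, so it was not a basal-enriched gene in these aggregates.

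Contractile genes of the myoepithelium were lower or did not pass. Of 15 smooth muscle contractile genes tested, 0 were higher and 5 lower, with a median log2 difference of -0.70. The level of Mylk was 114 and 130.4 CPM in basal 1 and 3, 157 in basal 2 and 52.1, 42.9 and 42.8 in the mixed libraries. Mylk, the kinase of the myosin light chain, differed by log2 -1.54, SE 0.18, adjusted p = 0.00032. Oxtr was at 367 and 330.3 CPM in basal 1 and 3, at 165 in basal 2 and at 89.3, 101 and 80.7 in the mixed libraries. Oxtr, the oxytocin receptor, differed by log2 -1.67, SE 0.36, adjusted p = 0.012, but basal 2 was nearest to the mixed libraries and the difference against it alone was -0.87 and did not pass. Smtn, smoothelin, fell to 44.3% of the basal mean (log2 -1.17, SE 0.19, adjusted p = 0.0028). Acta2 stood at 1775 to 2026 CPM in mixed and 2384 to 2736 in basal libraries, which did not overlap, yet it did not pass (log2 -0.46, SE 0.39, adjusted p = 0.47).

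Luminal genes rose widely. Of 16 pan-luminal genes tested, 11 were higher and 0 lower, with a median log2 difference of 0.87. For Krt19 the values were 809 and 878 CPM in basal 1 and 3, 882 in basal 2 and 5014, 4601 and 3997 in mixed aggregates (chromosome 11, 100031636 to 100039491). Krt19, a luminal keratin, differed by log2 2.41, SE 0.20, adjusted p = 3.6e-05, and the mixed libraries lay above the luminal ones as well, which stood at 1302, 1637 and 1069.5 CPM. Krt7 stood at 167 and 172 CPM in basal 1 and 3, 107 in basal 2 and 731, 659 and 567 in mixed 1 to 3. Krt7 differed by log2 2.13, SE 0.24, adjusted p = 0.00028. Krt8 and Krt18, the keratin pair of simple epithelia, were at 155% and 187% of the basal mean (log2 0.63, SE 0.19, adjusted p = 0.047 for Krt8, log2 0.90, SE 0.21, adjusted p = 0.017 for Krt18). Both lost the call against basal 2 and when basal 1, basal 3, mixed 1 or mixed 2 was left out, with adjusted p up to 0.13 and 0.062. Krt8 lost it also without luminal 3 or mixed 3. Basal aggregates held Krt8 at 914 to 1046 CPM, so these keratins were not restricted to aggregates with luminal cells.

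Genes of luminal progenitors and of hormone-sensing luminal cells rose as well. Of 14 luminal progenitor genes tested, 9 were higher and 0 lower, with a median log2 difference of 1.12. The level of Kit was 57.4 and 46.6 CPM in basal 1 and 3, 26.5 in basal 2 and 485, 467 and 548 in the mixed libraries (chromosome 5, 75735576 to 75817382). Kit, the receptor of stem cell factor, differed by log2 3.52, SE 0.29, adjusted p = 3.5e-05. Elf5 was at 22.6 and 25.3 CPM in basal 1 and 3, at 29.7 in basal 2 and at 161, 170.3 and 173 in the mixed libraries. Elf5, a transcription factor of the alveolar lineage, differed by log2 2.70, SE 0.17, adjusted p = 6.9e-06. For Cd14 the values were 19.5 and 33.5 CPM in basal 1 and 3, 16.0 in basal 2 and 459, 459 and 489 in mixed aggregates. Cd14, a coreceptor for lipopolysaccharide, differed by log2 4.35, SE 0.28, adjusted p = 6.9e-06, and its luminal level was higher, at 905, 1051 and 837 CPM. None of these 3 genes overlapped between groups, but they were chosen as calls from these same libraries. Kit stood higher in mixed libraries than in the luminal ones (251, 186 and 296 CPM). Of 12 hormone-sensing luminal genes tested, 7 were higher and 1 lower, with a median log2 difference of 1.24. Prlr stood at 80.4 and 78.1 CPM in basal 1 and 3, 56.9 in basal 2 and 624, 623 and 543 in mixed 1 to 3. Prlr, the prolactin receptor, differed by log2 3.06, SE 0.23, adjusted p = 1.6e-05. The level of Esr1 was 16.5 and 11.8 CPM in basal 1 and 3, 6.12 in basal 2 and 57.1, 67.6 and 59.1 in the mixed libraries. Esr1, oestrogen receptor alpha, differed by log2 2.41, SE 0.33, adjusted p = 0.0008. Greb1, an oestrogen target, rose from 1.10 to 1.67 CPM in basal libraries to 9.69 to 24.5 in mixed ones (log2 3.55, SE 0.47, adjusted p = 0.00067). The 1 lower member, Wnt5a, lost its call without basal 1 or 3 or any mixed library.

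Milk genes moved in both directions. Of 9 milk protein and milk fat genes tested, 3 were higher and 1 lower, with a median log2 difference of 0.29. Btn1a1 was at 22.2 and 17.0 CPM in basal 1 and 3, at 14.9 in basal 2 and at 172, 165 and 235 in the mixed libraries. Btn1a1, butyrophilin, a protein of the milk fat globule membrane, differed by log2 3.40, SE 0.24, adjusted p = 1.3e-05. Lalba, alpha-lactalbumin, rose from 0.115 to 0.254 CPM in basal libraries to 5.91 to 9.38 in mixed ones (log2 5.41, SE 0.83, adjusted p = 0.0018). In the other direction, for Csn3 the values were 878 and 794 CPM in basal 1 and 3, 1052 in basal 2 and 215, 147 and 114 in mixed aggregates. Csn3, kappa-casein, fell to 17.5% of the basal mean (log2 -2.52, SE 0.26, adjusted p = 0.00014), and the luminal libraries held it at 344, 223 and 298 CPM. Wap, whey acidic protein, had 0 counts in all 3 basal libraries and was at least 17.5-fold higher in mixed ones, taking 3 counts per basal library as the bound.

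Acute-phase and secreted defence genes had the highest median difference of any list described here. Of 14 acute-phase and secreted defence genes tested, 10 were higher and 0 lower, with a median log2 difference of 2.50. Saa1 stood at 0.304 and 2.59 CPM in basal 1 and 3, 0.882 in basal 2 and 46.6, 42.1 and 128 in mixed 1 to 3. The level of Saa2 was 0.0507 and 1.09 CPM in basal 1 and 3, 0 in basal 2 and 12.4, 15.9 and 33.1 in the mixed libraries. Saa1 and Saa2 encode serum amyloid A proteins, secreted in inflammation, and differed by log2 5.86, SE 0.77, adjusted p = 0.00068 for Saa1 and log2 5.77, SE 0.92, adjusted p = 0.0023 for Saa2. They are near-identical copies on chromosome 7 (46389921 to 46392404 and 46401214 to 46403737, mm39), so reads that match both were not counted and the split between them is uncertain. Mixed 3 was highest for both. No mixed library overlapped a basal one, which the rule for the largest rises required. Wfdc17 was at 0.507 and 0.92 CPM in basal 1 and 3, at 2.48 in basal 2 and at 62.1, 65.9 and 45.6 in the mixed libraries. Wfdc17, a secreted protein with a whey acidic protein domain, differed by log2 5.47, SE 0.45, adjusted p = 3.2e-05. For Hp the values were 90.1 and 136 CPM in basal 1 and 3, 14.99 in basal 2 and 619, 498 and 427 in mixed aggregates. Hp, haptoglobin, which binds free haemoglobin, differed by log2 2.68, SE 0.56, adjusted p = 0.011, and basal 2 was well below basal 1 and 3.

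Since both serum amyloid genes rose together, their promoters are shown from 250 to 51 bases before the RefSeq start (GRCm38.p6), 5′ to 3′ on the gene's strand, with matches to the letters TTGCNNAA in capitals. These letters are a form of the site of C/EBP factors, which are known regulators of acute-phase genes. Saa1 lies at chr7:46743031-46743230 on the minus strand and Saa2 at chr7:46751583-46751782 on the plus strand.
Saa1: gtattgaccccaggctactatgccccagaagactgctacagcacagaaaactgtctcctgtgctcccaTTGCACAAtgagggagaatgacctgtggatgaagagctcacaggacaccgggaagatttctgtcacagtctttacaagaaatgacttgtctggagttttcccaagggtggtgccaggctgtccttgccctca
Saa2: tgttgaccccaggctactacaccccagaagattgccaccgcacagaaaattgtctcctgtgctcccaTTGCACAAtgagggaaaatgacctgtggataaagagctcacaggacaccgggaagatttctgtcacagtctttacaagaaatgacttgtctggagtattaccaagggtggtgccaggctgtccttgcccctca
The windows were identical at 188 of 201 aligned columns (93.5%). Each held 1 match, TTGCACAA, which begins 182 bases before the start in Saa1 and 183 in Saa2. Of 32851 RefSeq promoter windows of the same length, 8.11% held TTGCNNAA on either strand. A second set of letters searched on both strands, TTCNNNGAA, was in neither window and in 5.76% of all windows. A match is a description of the letters and not of binding, which was not measured.

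Ion transport genes split by member. Of 20 carbonic anhydrase, water and ion transport genes tested, 9 were higher and 3 lower, with a median log2 difference of 1.37. Tmem213 stood at 0.964 and 1.84 CPM in basal 1 and 3, 1.82 in basal 2 and 131, 119 and 118 in mixed 1 to 3. Tmem213, a membrane protein of epithelia rich in proton pumps, differed by log2 6.32, SE 0.48, adjusted p = 1.8e-05. The level of Atp1b1 was 16.3 and 18.5 CPM in basal 1 and 3, 21.0 in basal 2 and 165, 191 and 152 in the mixed libraries. Atp1b1, the beta subunit of the sodium-potassium pump, differed by log2 3.19, SE 0.26, adjusted p = 3e-05. Slc34a2, a sodium-phosphate cotransporter, had 0 counts in basal 2 and 9.48 to 16.0 CPM in mixed libraries (log2 3.60, SE 0.81, adjusted p = 0.015), and its adjusted p was 0.061 without basal 1. On the falling side, Clca3a2 was at 363 and 358 CPM in basal 1 and 3, at 154 in basal 2 and at 23.2, 22.8 and 19.3 in the mixed libraries. Clca3a2, a secreted regulator of chloride conductance, fell to 7.46% of the basal mean (log2 -3.74, SE 0.33, adjusted p = 5.1e-05), below its luminal level of 130.5, 148 and 205 CPM. Car9 and Car12, extracellular carbonic anhydrases, fell to 27.8% and 29.5% of the basal mean. Squamous genes were mixed in direction. Of 18 squamous differentiation genes tested, 3 were higher and 2 lower, with a median log2 difference of 0.45. For Klk10 the values were 27.2 and 46.1 CPM in basal 1 and 3, 15.2 in basal 2 and 387, 284 and 479.7 in mixed aggregates. Klk10, a secreted serine protease of the kallikrein family, differed by log2 3.70, SE 0.64, adjusted p = 0.0037, and the mixed libraries exceeded the luminal ones (19.8, 107 and 157 CPM). Krt6a, a keratin of activated epidermis, rose by log2 1.15, SE 0.20, adjusted p = 0.0045, with 24.8% of its exon bases shared with another gene name, while Krt23 fell to 8.36% of the basal mean (log2 -3.58, SE 0.32, adjusted p = 6.3e-05).

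**Figure D3:**
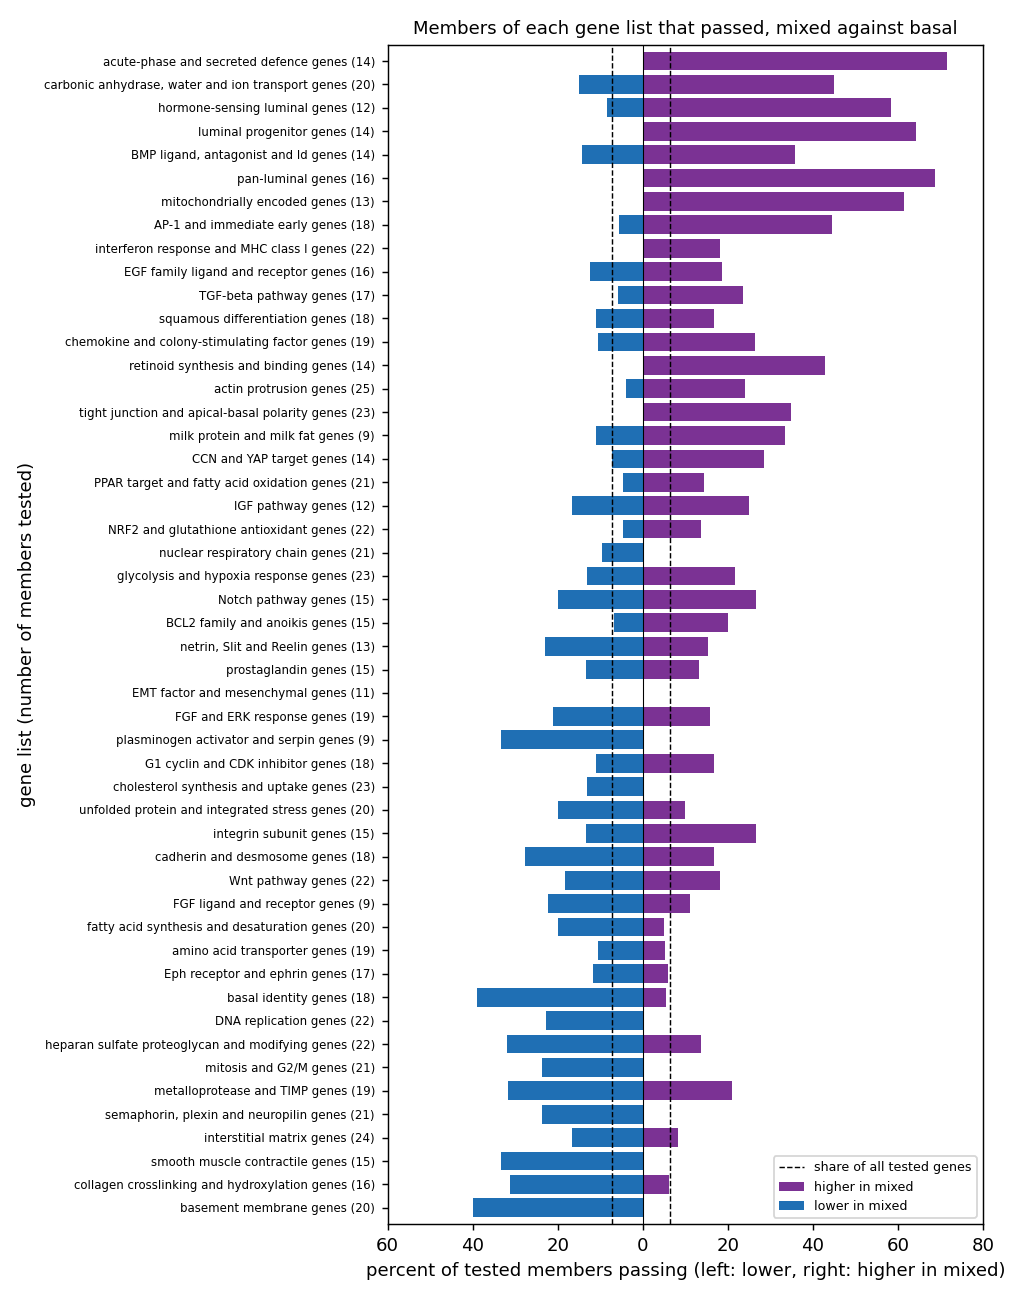
Each row is a gene list with the number of members tested, ordered by its median log2 difference, and bars give the percent of those members that passed as higher (purple, right) or lower (blue, left) in mixed aggregates. Dashed lines mark 6.39% and 7.33%, the shares over all tested genes. Luminal, acute-phase and mitochondrially encoded lists extend furthest to the right, and basement membrane and basal identity lists furthest to the left.

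Cell cycle genes were lower in mixed aggregates in part, and by less than 2-fold for most. Of 22 DNA replication genes tested, 0 were higher and 5 lower, with a median log2 difference of -0.44. Of 21 mitosis and G2/M genes tested, 0 were higher and 5 lower, with a median log2 difference of -0.48. Mcm5 stood at 217 and 235 CPM in basal 1 and 3, 262 in basal 2 and 131, 118 and 124 in mixed 1 to 3. Mcm5, a subunit of the replicative helicase, differed by log2 -0.94, SE 0.16, adjusted p = 0.0032. The level of Kif20a was 92.6 and 81.5 CPM in basal 1 and 3, 50.1 in basal 2 and 17.4, 29.5 and 16.9 in the mixed libraries. Kif20a, a kinesin of cytokinesis, differed by log2 -1.81, SE 0.30, adjusted p = 0.003, and 29.3% of its exon bases are shared with another gene name. Bub1b, of the spindle checkpoint, fell to 39.7% of the basal mean (log2 -1.33, SE 0.32, adjusted p = 0.019), a call that ended when basal 1, basal 3, mixed 1 or mixed 2 was left out (adjusted p up to 0.072). Mki67 was at 199.7 and 202 CPM in basal 1 and 3, at 286 in basal 2 and at 190.2, 202 and 223 in the mixed libraries. Mki67, the proliferation marker Ki-67, did not pass (log2 -0.16, SE 0.21, adjusted p = 0.65) and stood at 89.5% of the basal mean, whereas luminal aggregates held 2.91, 2.97 and 4.67 CPM. Its groups overlapped, and its small difference changed sign when basal 2 was left out. No member of these 2 lists was lower when tested against a 2-fold difference. Of 18 regulators of G1 tested, 3 were higher and 2 lower. For Rb1 the values were 28.2 and 25.6 CPM in basal 1 and 3, 23.4 in basal 2 and 104, 112 and 143 in mixed aggregates. Rb1, the retinoblastoma protein that restrains entry into S phase, differed by log2 2.22, SE 0.20, adjusted p = 6.3e-05. Luminal libraries held more of it, at 233, 186 and 276 CPM. Of 15 genes of the BCL2 family and of anoikis, death upon loss of matrix contact, 3 were higher and 1 lower. Bik, which promotes apoptosis, rose from 6.04 to 8.87 CPM in basal libraries to 35.7 to 55.6 in mixed ones (log2 2.70, SE 0.26, adjusted p = 8.9e-05).

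Basement membrane genes had the largest share of lower members among the lists in the plot by list. Of 20 basement membrane genes tested, 0 were higher and 8 lower, with a median log2 difference of -0.91. Lama1 stood at 44.2 and 32.7 CPM in basal 1 and 3, 49.0 in basal 2 and 6.18, 7.01 and 5.77 in mixed 1 to 3. Lama1, the alpha chain of laminin-111, differed by log2 -2.73, SE 0.29, adjusted p = 0.00018 and stood at 15.1% of the basal mean. The level of Col7a1 was 347 and 281 CPM in basal 1 and 3, 121 in basal 2 and 74.3, 66.4 and 46.0 in the mixed libraries. Col7a1, the anchoring fibril collagen, differed by log2 -2.01, SE 0.36, adjusted p = 0.0044, but basal 2 lay between the groups and the difference against it alone, -0.96, did not pass. Col4a2, a chain of the collagen IV network, fell to 37.7% of the basal mean (log2 -1.41, SE 0.29, adjusted p = 0.01). Perlecan, Hspg2, and collagen XVIII, Col18a1, 2 proteoglycans of the same sheet, fell to 38.1% and 39.0% (log2 -1.39, SE 0.18, adjusted p = 0.00052 for Hspg2, log2 -1.36, SE 0.19, adjusted p = 0.00095 for Col18a1). They belong to a list of heparan sulfate proteoglycans and their enzymes, which bind FGF10, in which 7 of 22 members were lower and 3 higher (median log2 -0.44). Against basal 2 alone 0 were higher and 2 lower and the median was 0.07, whereas it was -0.68 against basal 1 and 3. Of its risers, Sdc3, Sulf2 and Sdc4, none passed without basal 1, basal 3 or any 1 of the mixed libraries, and neither did Sdc3 without basal 2 or Sulf2 and Sdc4 without luminal 1.

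Other matrix genes fell less uniformly. Of 24 interstitial matrix genes tested, 2 were higher and 4 lower, with a median log2 difference of -0.64. Vcan was at 87.8 and 74.5 CPM in basal 1 and 3, at 121 in basal 2 and at 24.4, 26.8 and 34.0 in the mixed libraries. Vcan, the large proteoglycan versican, differed by log2 -1.73, SE 0.25, adjusted p = 0.0014, and Fbln1, fibulin-1, by log2 -1.74, SE 0.28, adjusted p = 0.0026. Fbln1 is also the 1 member of the fibroblast markers that passed as lower. The summed level of all fibroblast markers was 120 to 154 CPM in basal, 49.7 to 71.6 in mixed and 6.77 to 11.4 in luminal libraries. Much of that sum was Fbln1 itself, at 90.5 to 131 CPM in basal and 29.2 to 33.1 in mixed libraries. Of the 6 markers tested, 3 had a positive and 3 a negative difference, with a median log2 of -0.085. The part of fibroblasts in the fall of matrix genes was not tested. For Col12a1 the values were 22.5 and 20.3 CPM in basal 1 and 3, 19.2 in basal 2 and 63.1, 55.9 and 46.6 in mixed aggregates. Col12a1, a collagen that decorates fibrils, rose in the opposite direction (log2 1.42, SE 0.21, adjusted p = 0.0017), above its luminal level of 6.96, 6.23 and 4.54 CPM. Of 16 collagen crosslinking and hydroxylation genes tested, 1 was higher and 5 lower, with a median log2 difference of -0.79. Serpinh1, the collagen chaperone HSP47, fell to 40.7% of the basal mean (log2 -1.30, SE 0.20, adjusted p = 0.0019). Tgm2, tissue transglutaminase, rose (log2 1.47, SE 0.30, adjusted p = 0.0098), with 21.8% of its exon bases shared.

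Genes of matrix proteases and their inhibitors moved in both directions. Of 19 metalloprotease and TIMP genes, 4 were higher and 6 lower (median log2 -0.50). Timp3 stood at 223 and 206 CPM in basal 1 and 3, 100.3 in basal 2 and 572, 622 and 706 in mixed 1 to 3. The level of Timp2 was 182 and 165 CPM in basal 1 and 3, 159 in basal 2 and 302, 299 and 327 in the mixed libraries. Timp3 and Timp2, tissue inhibitors of metalloproteases, differed by log2 1.84, SE 0.33, adjusted p = 0.0046 for Timp3 and log2 0.87, SE 0.15, adjusted p = 0.0032 for Timp2. Adamts9 was at 23.6 and 23.7 CPM in basal 1 and 3, at 21.3 in basal 2 and at 1.43, 3.32 and 2.83 in the mixed libraries. Adamts9, a protease that cleaves versican, differed by log2 -3.17, SE 0.37, adjusted p = 0.00031. Adam8 fell to 17.1% of the basal mean (log2 -2.55, SE 0.50, adjusted p = 0.0079), although it did not pass against basal 2. In the plasminogen system 3 of 9 members were lower and 0 higher. Plat, tissue plasminogen activator, fell to 19.6% (log2 -2.35, SE 0.42, adjusted p = 0.0043) and Serpine2, an inhibitor of it, to 42.1% (log2 -1.25, SE 0.22, adjusted p = 0.0038).

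Adhesion genes moved in both directions. Of 18 cadherin and desmosome genes tested, 3 were higher and 5 lower, with a median log2 difference of -0.24. For Cdh2 the values were 40.6 and 32.8 CPM in basal 1 and 3, 39.1 in basal 2 and 8.87, 4.06 and 5.72 in mixed aggregates. Cdh2, N-cadherin, differed by log2 -2.59, SE 0.33, adjusted p = 0.00053, while Cdh1, E-cadherin, stood at 343 to 510 CPM in basal and 430 to 505 in mixed libraries and did not pass (log2 0.14, SE 0.21, adjusted p = 0.71). The sign of the small Cdh1 difference turned with scaling by library size alone. Pkp2, plakophilin-2, which anchors desmosomal cadherins, rose (log2 1.11, SE 0.21, adjusted p = 0.0066). Of 15 integrin subunit genes tested, 4 were higher and 2 lower, with a median log2 difference of -0.21. Itgb6, Itga8 and Itgb3 rose, with differences of log2 1.66, log2 1.15 and log2 1.11, and Itga5, the alpha chain of the main fibronectin receptor, fell to 33.0% of the basal mean (log2 -1.60, SE 0.25, adjusted p = 0.0023). Of 23 tight junction and apical-basal polarity genes tested, 8 were higher and 0 lower, with a median log2 difference of 0.32. Podxl stood at 17.8 and 14.7 CPM in basal 1 and 3, 14.9 in basal 2 and 114, 94.7 and 99.5 in mixed 1 to 3. Podxl, podocalyxin, a sialomucin of the apical membrane, differed by log2 2.70, SE 0.17, adjusted p = 6.9e-06, and the mixed libraries exceeded the luminal ones (48.5, 54.4 and 47.2 CPM). Cldn1 and Cldn4, claudins of the tight junction, rose from 37.4 to 56.2 and 27.3 to 34.2 CPM in basal libraries to 118 to 210.3 and 63.0 to 95.2 in mixed ones (log2 1.69, SE 0.27, adjusted p = 0.0025 for Cldn1, log2 1.48, SE 0.23, adjusted p = 0.0021 for Cldn4).

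Genes of actin protrusion, the machinery of cell migration, rose in part. Of 25 actin protrusion genes tested, 6 were higher and 1 lower, with a median log2 difference of 0.36. Only 1 of them was higher against basal 2 alone (3.26% of all genes were). The level of Cdc42ep3 was 45.8 and 48.4 CPM in basal 1 and 3, 87.3 in basal 2 and 168, 188 and 190.1 in the mixed libraries. Cdc42ep3, an effector of the GTPase Cdc42, differed by log2 1.59, SE 0.25, adjusted p = 0.002, and Cdc42ep5 by log2 1.92, SE 0.36, adjusted p = 0.0061, where basal 2 lay above basal 1 and 3. Among 11 EMT factors and mesenchymal genes (EMT is epithelial-mesenchymal transition) 0 were called in either direction by edgeR's quasi-likelihood test (2 at an unadjusted p under 0.05, and 1 by DESeq2). Vim was at 221 and 262 CPM in basal 1 and 3, at 695 in basal 2 and at 191, 163 and 204 in the mixed libraries. Vim, vimentin, did not pass (log2 -1.08, SE 0.51, adjusted p = 0.18): basal 2 stood far above the 2 other basal libraries, and the lowest and highest differences with 1 library left out were -1.34 and -0.39. Of 14 CCN and YAP target genes, 4 were higher and 1 lower. Amotl2, an angiomotin that restrains YAP, rose from 12.3 to 20.3 CPM in basal libraries to 44.6 to 52.3 in mixed ones (log2 1.49, SE 0.23, adjusted p = 0.0017), and Axl, a receptor tyrosine kinase, fell to 53.9% of the basal mean (log2 -0.89, SE 0.17, adjusted p = 0.0068).

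FGF pathway genes moved in both directions, and the ETS factors Etv4 and Etv5 fell. Of 9 FGF ligands and receptors and 19 response genes tested, 1 and 3 were higher and 2 and 4 lower. The 3 higher response genes were Epha4, Phlda1 and Ier3, none of which passed against basal 2 alone. For Fgf1 the values were 43.7 and 37.7 CPM in basal 1 and 3, 27.6 in basal 2 and 4.29, 1.54 and 8.61 in mixed aggregates. Fgf1, which binds all FGF receptors, differed by log2 -2.91, SE 0.53, adjusted p = 0.0053. Fgfr2 stood at 114 and 84.8 CPM in basal 1 and 3, 56.7 in basal 2 and 30.0, 34.5 and 43.7 in mixed 1 to 3. Fgfr2, the receptor of FGF10, stood at 42.4% of the basal mean (log2 -1.24, SE 0.34, adjusted p = 0.036), but the difference against basal 2 was -0.65 and did not pass, and the adjusted p reached 0.15 when basal 1, basal 3 or any mixed library was left out. The level of Etv4 was 64.9 and 67.9 CPM in basal 1 and 3, 75.1 in basal 2 and 16.7, 11.4 and 12.96 in the mixed libraries. Etv5 was at 226 and 169 CPM in basal 1 and 3, at 271 in basal 2 and at 65.1, 79.7 and 49.3 in the mixed libraries. The falls of Etv4 and Etv5 (log2 -2.34, SE 0.25, adjusted p = 0.00018 for Etv4, log2 -1.78, SE 0.25, adjusted p = 0.001 for Etv5) were as large against basal 2 alone, -2.45 and -2.07, and passed there. Etv4 was also lower when tested against a 2-fold difference, as was Etv5. Fgfr1 did not pass (log2 -0.38, SE 0.21, adjusted p = 0.26) and its sign turned against basal 2. Fgfbp1, a carrier that releases FGFs from the matrix, rose from 33.0 to 50.0 CPM in basal libraries to 93.7 to 110.2 in mixed ones (log2 1.31, SE 0.26, adjusted p = 0.0076).

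Ligands of the EGF receptor family moved in both directions. Of 16 genes tested, 3 were higher and 2 lower. For Areg the values were 49.9 and 46.6 CPM in basal 1 and 3, 48.2 in basal 2 and 265, 213 and 150.1 in mixed aggregates (chromosome 5, 91287458 to 91296291). Areg, amphiregulin, a ligand of the EGF receptor and an oestrogen target, differed by log2 2.12, SE 0.28, adjusted p = 0.00077. Hbegf stood at 1.12 and 1.32 CPM in basal 1 and 3, 0.827 in basal 2 and 6.92, 6.52 and 10.9 in mixed 1 to 3. Hbegf differed by log2 2.89, SE 0.40, adjusted p = 0.00088, and Btc, betacellulin, by log2 1.73, SE 0.26, adjusted p = 0.0016. The level of Nrg2 was 62.3 and 55.2 CPM in basal 1 and 3, 65.7 in basal 2 and 6.24, 5.54 and 5.61 in the mixed libraries. Nrg1 was at 75.9 and 66.6 CPM in basal 1 and 3, at 78.3 in basal 2 and at 8.87, 2.65 and 20.6 in the mixed libraries. Nrg2 and Nrg1, neuregulins, which bind the receptors Erbb3 and Erbb4, differed by log2 -3.40, SE 0.29, adjusted p = 4.3e-05 for Nrg2 and log2 -2.77, SE 0.55, adjusted p = 0.0083 for Nrg1. All 5 ligands kept the direction against basal 2 alone, and none overlapped between groups. They were chosen as calls from these same libraries, so this is a description only. The mixed mean of Nrg2 was 9.49% of the basal mean, and that of Nrg1 14.6%, with mixed 2 lowest and mixed 3 highest.

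**Figure D4:**
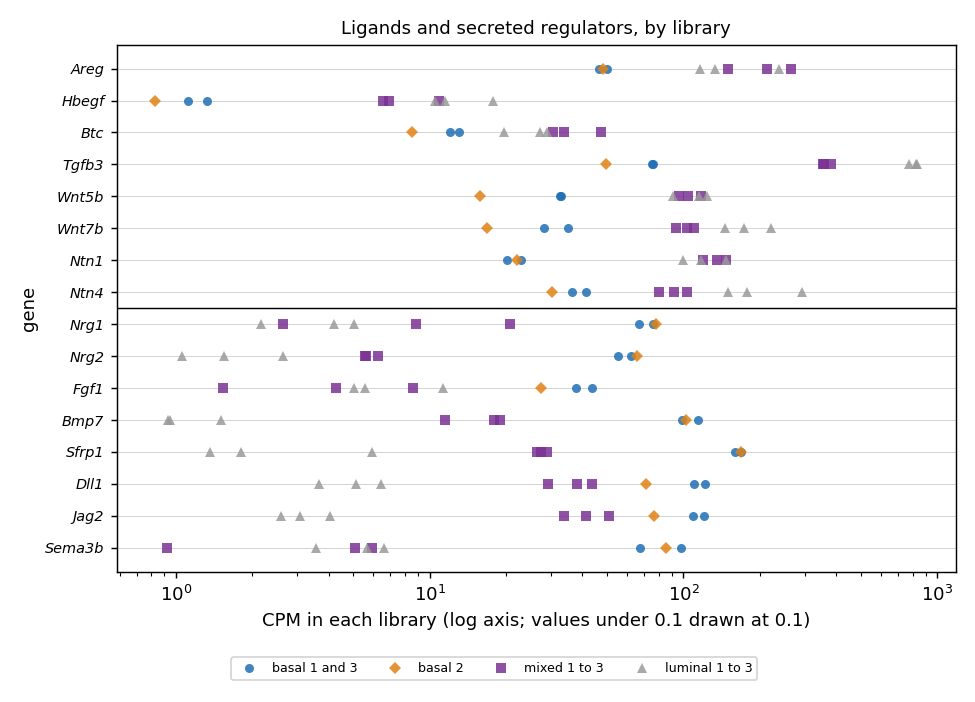
Rows are genes of secreted ligands and regulators and symbols are libraries, with CPM on a log axis and colours for basal 1 and 3 (blue), basal 2 (orange), mixed (purple) and luminal (grey). The 8 genes above the line rose and the 8 below it fell. For Nrg2 the mixed libraries stand at 5.54 to 6.24 CPM, against 55.2 to 65.7 in the basal libraries, and for Tgfb3 at 355 to 380.3 against 49.3 to 75.7.

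Wnt and Notch genes moved in both directions within each pathway. Of 22 Wnt genes tested, 4 were higher and 4 lower. For Wnt5b the values were 32.6 and 32.8 CPM in basal 1 and 3, 15.8 in basal 2 and 104, 117 and 95.7 in mixed aggregates. Wnt7b stood at 35.2 and 28.3 CPM in basal 1 and 3, 16.8 in basal 2 and 109.8, 103 and 93.5 in mixed 1 to 3. Wnt5b and Wnt7b, Wnt ligands, differed by log2 1.96, SE 0.26, adjusted p = 0.00076 for Wnt5b and log2 1.93, SE 0.26, adjusted p = 0.00078 for Wnt7b, with basal 2 lowest of all libraries. The level of Sfrp1 was 168 and 160.3 CPM in basal 1 and 3, 169 in basal 2 and 29.0, 27.5 and 26.4 in the mixed libraries (chromosome 8, 23901518 to 23939648). Sfrp1, a secreted inhibitor that binds Wnt ligands, differed by log2 -2.58, SE 0.38, adjusted p = 0.0014, and its mixed mean was 16.7% of the basal mean. Dkk3, of the Dickkopf family, fell to 32.8% (log2 -1.61, SE 0.34, adjusted p = 0.011). Its difference against basal 2 alone, -1.31, had the same direction but did not pass. Of 15 Notch genes, 4 were higher and 3 lower, and against basal 2 alone 0 passed in either direction. Dll1 was at 121 and 110.2 CPM in basal 1 and 3, at 71.3 in basal 2 and at 29.3, 38.0 and 43.6 in the mixed libraries. For Jag2 the values were 109 and 121 CPM in basal 1 and 3, 76.3 in basal 2 and 41.3, 33.8 and 50.8 in mixed aggregates. Dll1 and Jag2, Notch ligands, differed by log2 -1.45, SE 0.26, adjusted p = 0.0044 for Dll1 and log2 -1.28, SE 0.23, adjusted p = 0.0051 for Jag2, with basal 2 between the other basal libraries and the mixed ones.

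In the TGF-beta superfamily both ligands and targets differed. Of 17 TGF-beta pathway genes tested, 4 were higher and 1 lower, with a median log2 difference of 0.47. Tgfb3 stood at 75.7 and 75.3 CPM in basal 1 and 3, 49.3 in basal 2 and 359, 355 and 380.3 in mixed 1 to 3 (chromosome 12, 86103519 to 86125815). Tgfb3, a TGF-beta ligand, differed by log2 2.45, SE 0.19, adjusted p = 2.4e-05, and its luminal level was higher, at 835, 823 and 773 CPM. The level of Tgfbr3 was 78.2 and 57.5 CPM in basal 1 and 3, 54.5 in basal 2 and 10.2, 5.23 and 4.25 in the mixed libraries. Tgfbr3, betaglycan, a coreceptor that presents TGF-beta, differed by log2 -3.27, SE 0.41, adjusted p = 0.00051. Of 14 BMP ligand, antagonist and Id genes tested, 5 were higher and 2 lower, with a median log2 difference of 0.90. Id1 was at 17.6 and 21.2 CPM in basal 1 and 3, at 36.5 in basal 2 and at 375, 345 and 385 in the mixed libraries. Id1, an inhibitor of basic helix-loop-helix factors and a direct BMP target, differed by log2 3.88, SE 0.41, adjusted p = 0.00017. For Id3 the values were 131 and 150.4 CPM in basal 1 and 3, 278 in basal 2 and 1211, 1092 and 1148 in mixed aggregates. Id3 differed by log2 2.63, SE 0.50, adjusted p = 0.0066, but the difference against basal 2, at 2.05, did not pass. For both, basal 2 stood above basal 1 and 3 and far below the mixed libraries, and the mixed libraries exceeded the luminal ones (272, 223 and 88.1 CPM for Id1 and 533, 346 and 95.2 CPM for Id3). Bmp7 stood at 98.5 and 114 CPM in basal 1 and 3, 102 in basal 2 and 11.4, 17.8 and 18.8 in mixed 1 to 3 (chromosome 2, 172709805 to 172782114). Bmp7, a BMP ligand, differed by log2 -2.71, SE 0.24, adjusted p = 5.1e-05. Bmp2 went the other way, from 0.115 to 0.406 CPM in basal libraries to 2.75 to 6.65 in mixed ones (log2 4.29, SE 0.75, adjusted p = 0.0039).

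Of 12 IGF pathway genes 3 were higher and 2 lower, and the binding proteins carried the largest differences in both directions. The level of Igfbp5 was 702 and 616 CPM in basal 1 and 3, 611 in basal 2 and 4539, 4581 and 5260.3 in the mixed libraries (chromosome 1, 72897091 to 72914043). Igfbp5, an IGF-binding protein of the involuting gland, differed by log2 2.90, SE 0.19, adjusted p = 7.9e-06, and its luminal level was higher, at 9508, 7778 and 6922 CPM. Igfbp3 was at 870.2 and 850.2 CPM in basal 1 and 3, at 988 in basal 2 and at 164, 140.1 and 93.8 in the mixed libraries (chromosome 11, 7156086 to 7163923). Igfbp3, the main carrier of IGFs in serum, differed by log2 -2.77, SE 0.40, adjusted p = 0.0012, and its mixed mean was 14.7% of the basal mean. Both kept their direction against basal 2, and neither overlapped between groups, but both were chosen as calls from these same libraries. Irs2, an adaptor of the insulin and IGF receptors, rose (log2 1.61, SE 0.24, adjusted p = 0.0015).

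Some semaphorin genes fell. Of 21 semaphorin, plexin and neuropilin genes tested, 0 were higher and 5 lower, with a median log2 difference of -0.52. Against basal 2 alone 1 was higher and 2 lower, with a median of -0.19, and Sema4c, 1 of the 5, differed from basal 2 by only -0.04. Besides Sema3b, described above, for Sema6d the values were 88.9 and 77.7 CPM in basal 1 and 3, 75.2 in basal 2 and 24.8, 22.3 and 39.6 in mixed aggregates. Sema6d, a transmembrane semaphorin, differed by log2 -1.48, SE 0.31, adjusted p = 0.01, which did not pass against basal 2. Sema3d had 0 counts in all 3 mixed libraries and was at least 20.2-fold lower there, taking 3 counts per mixed library as the bound. Of 13 netrin, Slit and Reelin genes, 2 were higher and 3 lower. Ntn1 stood at 20.1 and 22.8 CPM in basal 1 and 3, 22.2 in basal 2 and 147, 136 and 119 in mixed 1 to 3. Ntn1, netrin-1, a secreted guidance cue that also supports adhesion in the terminal end bud, differed by log2 2.63, SE 0.19, adjusted p = 1.3e-05. Ntn4 rose as well (log2 1.35, SE 0.25, adjusted p = 0.0052), and Vldlr, a Reelin receptor, fell to 46.2% of the basal mean (log2 -1.11, SE 0.20, adjusted p = 0.004). Of 17 Eph receptors and ephrins 1 was higher and 2 were lower, close to the shares over all genes (6.39% and 7.33%). The riser, Epha4, stood at 22.6 to 30.9 CPM in basal and 51.1 to 75.5 in mixed libraries (log2 1.31, SE 0.25, adjusted p = 0.0073).

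Immediate early, interferon and chemokine genes rose in part. Of 18 AP-1 and immediate early genes tested, 8 were higher and 1 lower, with a median log2 difference of 0.59. The level of Klf4 was 8.62 and 10.3 CPM in basal 1 and 3, 14.5 in basal 2 and 77.1, 61.3 and 50.2 in the mixed libraries. Klf4, a transcription factor of epithelial differentiation, differed by log2 2.49, SE 0.27, adjusted p = 0.00019, and the mixed libraries exceeded the luminal ones (25.3, 32.0 and 20.9 CPM). Fosl2, an AP-1 subunit, rose from 28.6 to 36.2 CPM in basal libraries to 108 to 119 in mixed ones (log2 1.84, SE 0.17, adjusted p = 7.3e-05). Of 22 interferon response and MHC class I genes tested, 4 were higher and 0 lower, with a median log2 difference of 0.55. Against basal 2 alone 0 of these passed in either direction. Of 19 chemokine and colony-stimulating factor genes tested, 5 were higher and 2 lower, with a median log2 difference of 0.45. Cxcl15 was at 27.8 and 21.6 CPM in basal 1 and 3, at 19.8 in basal 2 and at 115, 124 and 74.9 in the mixed libraries. Cxcl15 differed by log2 2.18, SE 0.38, adjusted p = 0.0039. Cxcl14, a chemokine made by epithelia, fell to 26.8% of the basal mean (log2 -1.90, SE 0.27, adjusted p = 0.0012).

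Some metabolic genes were called in each direction, where over all tested genes 6.39% were higher and 7.33% lower. Whether a metabolic list departs from these shares was not tested. Of 23 genes of cholesterol synthesis and uptake, 0 were higher and 3 lower. Of 20 genes of fatty acid synthesis, 1 was higher and 4 lower, and Fads2, the delta-6 desaturase, fell to 34.8% of the basal mean (log2 -1.52, SE 0.21, adjusted p = 0.0011). Of 21 PPAR targets and genes of fatty acid oxidation, 3 were higher and 1 lower, and the share of lower members was below that over all genes. Pparg, the nuclear receptor of fat storage, rose from 0.152 to 0.345 CPM in basal libraries to 2.94 to 7.94 in mixed ones (log2 4.67, SE 0.51, adjusted p = 0.00022). Of 23 genes of glycolysis and hypoxia, 5 were higher and 3 lower, among them Hk2, hexokinase-2, at 6.14 to 10.0 CPM in basal and 34.6 to 43.6 in mixed libraries (log2 2.31, SE 0.25, adjusted p = 0.00018).

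Of 13 mitochondrially encoded genes tested, 8 were higher and 0 lower, with a median log2 difference of 0.72. For mt-Nd6 the values were 305 and 328 CPM in basal 1 and 3, 353 in basal 2 and 711, 715 and 715 in mixed aggregates. mt-Nd6, a subunit of complex I, differed by log2 1.12, SE 0.19, adjusted p = 0.003. It is encoded on the opposite strand to most mitochondrial genes, and the counting did not use strand. mt-Atp6, of the ATP synthase, stood at 104 and 106 CPM in basal 1 and 3, 186 in basal 2 and 306, 263 and 291 CPM in mixed libraries (log2 1.12, SE 0.25, adjusted p = 0.013), and did not pass without basal 3 (adjusted p = 0.073). Against basal 2 alone 1 member of the 13 was higher. Of 21 nuclear genes of the respiratory chain, 0 were higher and 2 lower, but 10 were higher and 2 lower against basal 1 and 3, where 28.0% of all genes passed, and 0 passed against basal 2.

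Antioxidant, prostaglandin and retinoid genes held some of the larger single differences. Gpx3 stood at 101 and 88.7 CPM in basal 1 and 3, 51.4 in basal 2 and 1707, 1928 and 640.3 in mixed 1 to 3. Gpx3, a secreted glutathione peroxidase, differed by log2 4.15, SE 0.51, adjusted p = 0.00045, with mixed 3 lowest of the mixed libraries. The level of Gpx2 was 645 and 795 CPM in basal 1 and 3, 1311 in basal 2 and 293, 233 and 245 in the mixed libraries. Gpx2, an epithelial glutathione peroxidase, differed by log2 -1.83, SE 0.31, adjusted p = 0.0031, with basal 2 highest. They belong to a list of 22 NRF2 and glutathione genes with 3 higher and 1 lower, which became 11 and 1 against basal 1 and 3 and 2 and 4 against basal 2. Hpgd was at 2.43 and 3.45 CPM in basal 1 and 3, at 3.20 in basal 2 and at 37.8, 40.9 and 44.7 in the mixed libraries. Hpgd, which inactivates prostaglandins, differed by log2 3.76, SE 0.28, adjusted p = 1.6e-05, and the luminal libraries stood at only 4.37, 6.53 and 4.17 CPM. For Ptgs2 the values were 6.95 and 5.46 CPM in basal 1 and 3, 9.75 in basal 2 and 45.0, 45.5 and 43.7 in mixed aggregates. Ptgs2, the inducible cyclooxygenase, differed by log2 2.60, SE 0.34, adjusted p = 0.00068, and Ptgs1, the constitutive one, fell to 36.4% of the basal mean (log2 -1.46, SE 0.32, adjusted p = 0.013). Of 14 retinoid synthesis and binding genes tested, 6 were higher and 0 lower, with a median log2 difference of 0.45. Aldh1a3 stood at 256 and 277 CPM in basal 1 and 3, 126 in basal 2 and 898, 832 and 1162 in mixed 1 to 3. Aldh1a3, which makes retinoic acid, differed by log2 2.13, SE 0.29, adjusted p = 0.00086, and Crabp2, which carries it to the nucleus, by log2 1.55, SE 0.15, adjusted p = 9.6e-05.

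Of 20 unfolded protein and integrated stress genes, 2 were higher and 4 lower. The level of Xbp1 was 163 and 177 CPM in basal 1 and 3, 171 in basal 2 and 533, 506 and 476 in the mixed libraries. Xbp1, a transcription factor of the unfolded protein response and of secretory cells, differed by log2 1.57, SE 0.17, adjusted p = 0.00019. Of 19 amino acid transporters, 1 was higher and 2 lower, close to the shares over all genes (6.39% and 7.33%). Slc1a1, a glutamate transporter, rose from 0.772 to 2.08 CPM in basal libraries to 25.7 to 46.7 in mixed ones (log2 4.39, SE 0.39, adjusted p = 5.3e-05), with 31.9% of its exon bases shared with another gene name. Slc1a5, a glutamine transporter, fell to 41.1% of the basal mean (log2 -1.28, SE 0.20, adjusted p = 0.0021).

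Some transcripts followed the code series and not the kind of aggregate. Of 1150 genes at least 2-fold higher in the mixed libraries than in basal 1 and 3, basal 2 lay on the basal side of all mixed libraries in 857 (74.5%), inside their range in 255 and beyond them in 38. Of 1159 genes at least 2-fold lower, it lay on the basal side in 817 (70.5%), inside in 291 and beyond in 51. Klk1 was at 0 and 0.0575 CPM in basal 1 and 3, at 54.8 in basal 2 and at 54.0, 56.9 and 105 in the mixed libraries. For Cst10 the values were 0 and 0 CPM in basal 1 and 3, 14.4 in basal 2 and 14.4, 14.5 and 23.5 in mixed aggregates. Dcpp1 stood at 0.254 and 0.115 CPM in basal 1 and 3, 25.2 in basal 2 and 22.0, 20.1 and 41.0 in mixed 1 to 3. Klk1, a kallikrein, Cst10, a cystatin, and Dcpp1 are secretory genes known from salivary glands, and the luminal libraries held them at 0 to 0.54 CPM. None passed between mixed and basal aggregates (log2 1.98, SE 1.76, adjusted p = 0.5 for Klk1). Car1, Lypd8, Bpifb1, Klk1b22 and Lyz2 had the same arrangement, with at most 0.152 CPM in basal 1 and 3, 6.61 to 23.3 in basal 2 and 5.48 to 43.2 in mixed libraries. The source of these transcripts was not tested.

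**Figure D5:**
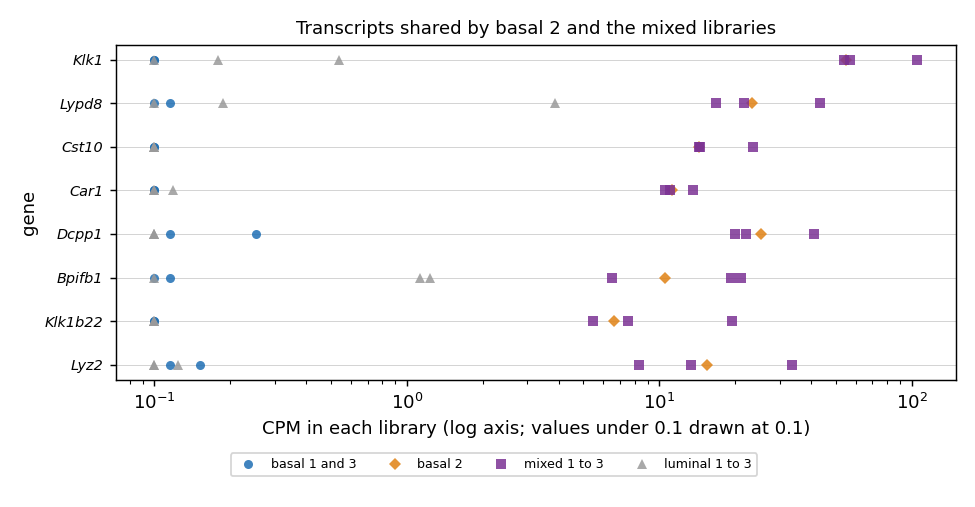
Rows are the 8 genes with the largest difference between mixed libraries and basal 1 and 3 for which basal 2 lies inside the mixed range, with CPM on a log axis. Basal 2 (orange) stands at 6.61 to 54.8 CPM among the mixed libraries (purple), while basal 1 and 3 (blue) lie at or under 0.254 CPM and most luminal values (grey) do as well.

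Among markers of other cells, those of macrophages set basal 2 apart from basal 1 and 3. Lyz2, named above for the place of basal 2, is among these markers, so that gene enters both observations. The summed level of the macrophage and dendritic markers was 5.12 and 4.94 CPM in basal 1 and 3, 58.3 in basal 2, 54.0 to 79.1 in mixed and 26.2 to 57.0 in luminal libraries. Of the 7 tested, 0 passed in either direction against the 3 basal libraries by edgeR's quasi-likelihood test (2 at an unadjusted p under 0.05, and 0 by DESeq2), and 5 were higher against basal 1 and 3. Lymphocyte markers summed to at most 5.49 CPM and adipocyte markers to at most 1.25 in any library, with 2 adipocyte markers at 0 counts in all basal and 4 in all mixed libraries. Endothelial markers ranged from 6.01 to 8.62 CPM in basal and from 6.70 to 13.6 in mixed libraries, with basal 2 lowest, and Schwann and pericyte markers from 77.3 to 97.2 and from 134 to 172, with basal 2 (82.5) among the basal libraries. The part of these cells in any result was not tested. In the reverse case basal 2 stood below the other 5 libraries. Ano4, a calcium-dependent lipid scramblase of the anoctamin family, held 1 count in basal 2 against 5.78 and 5.35 CPM in basal 1 and 3 and 12.2, 22.7 and 13.6 CPM in mixed libraries, and did not pass (log2 2.11, SE 0.79, adjusted p = 0.097). Ccl20, a chemokine, and Slc34a2 had 0 counts in basal 2 and were called all the same, with Ccl20 at log2 3.45, SE 0.87, adjusted p = 0.024 and an adjusted p up to 0.075 without basal 1, basal 3 or mixed 1.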

How the data were processed

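Sorted mouse mammary epithelial cells in aggregates were sequenced as stranded mRNA libraries, per the labels' protocols. The deposited file gives raw counts by gene name beside the summed exon length. The authors counted read pairs on exons with featureCounts 2.0.1 and without strand, per the file headers. The submitters' processing notes name Trim Galore, Subread and the build mm39. Multi-mapping reads were left out by the counting, which lowers the values of near-identical gene copies. The annotation release is not given in the sources used here.

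All 9 libraries were fitted together with edgeR 4.0.16 (R 4.3.3), using filterByExpr with the 3 groups, TMM scaling and the robust, two-sided quasi-likelihood test with 6 residual degrees of freedom. P-values were adjusted by Benjamini-Hochberg over 18051 genes (threshold 0.05). SE is the absolute log2 difference divided by the square root of F, and CPM carry no pseudocount. Libraries carry the numbers of their titles. Positions and shared exon bases come from the exon coordinates of the table. The promoters of both Saa genes were matched by symbol in RefSeq's table on GRCm38.p6.

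The members and the 57 gene lists were chosen with earlier results of these data known. The lists hold 982 symbols, of which 981 are in the table and 868 passed the filter. The genes named are the 12 most raised and 12 most lowered calls with a mean of 10 CPM or more in the higher group and no overlap of the libraries, per list up to 3 calls each way with 5 CPM or more, 15 fixed genes, and a pair of sets of up to 8 genes chosen by the place of basal 2. Wap, Sema3d and the promoter motifs were chosen after the values were seen. Values of some list members are not reported here. On counts simulated for this comparison (17198 genes), 36% of 2-fold and 73% of 4-fold changes were recovered, and 1.8% of all calls were false. The simulated counts were independent between genes and held no shift of basal 2 and no effect of the code series. The share of false calls among the real calls therefore cannot be read from them. The alternatives were 3 scalings, 2 filters, DESeq2 1.42.0, limma-voom (limma 3.58.1), a test against 2-fold, a fit of 6 libraries, a block on the title number, a term for the code series, basal 2 as its own group, and each library left out in turn.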

Additional observations from a re-analysis of the deposited data

How the results depend on the processing

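Against 1153 higher and 1324 lower genes, fits with 1 library left out called 558 to 2627 higher and 405 to 2493 lower. Without basal 2, which gave the highest counts, 1109 and 1286 of the original calls were among them. With the code series as a term, which leaves 4 residual degrees of freedom, 529 were higher and 324 lower. With basal 2 as its own group, which leaves 5, mixed aggregates differed from basal 1 and 3 at 2711 and 2338 genes and from basal 2 at 589 and 386. A test against a 2-fold difference gave 258 and 120. DESeq2 gave 2340 lower genes and no filter on low counts gave 2190, against 1664 and 1713 higher. Other scalings, limma-voom, the filter at 1 CPM and the fit of only the 6 libraries stayed within 1.5 times of both counts. Some of these settings also bring fewer libraries or a stricter threshold, and DESeq2 and the fit without a filter bring neither. The cause of these shifts was not tested.

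With the title number as replicate block, 1119 genes were higher and 1008 lower. Mixed and basal libraries with the same title number did not deviate together across genes (r = 0.06, -0.17 and -0.14). The title numbers thus give no sign of pairing, and the block is only an alternative. Sample descriptions number the basal libraries otherwise. There basal 2 shares its number with mixed 3 (r = 0.19), the highest r of any pair, and a block on those numbers was not fitted. Among the named genes, 3 changed sign in 1 or more alternatives, and none of the 3 had passed. Cdh1 moved to -0.035 with library size alone, Fgfr1 to 0.11 against basal 2 and with the code series, and Mki67 to 0.0312 against basal 1 and 3. With 1 library left out, Mki67 ranged from -0.252 to 0.0169. Depth limits genes near 3 counts, and 101 of the lower genes have 0 counts in all 3 mixed libraries, so their fitted differences are no measure of size.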
